A study of Mus musculus with 6 samples.

Results

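The 10 genes described here encode the negative feedback arm of the ERK pathway. They are 5 dual-specificity phosphatases (Dusp1, Dusp2, Dusp4, Dusp5 and Dusp6), 3 Sprouty proteins (Spry1, Spry2 and Spry4) and 2 Sprouty-related proteins with an EVH1 domain (Spred1 and Spred2). They were taken by symbol from the table of normalized counts, where all 10 were found among 21456 genes, and all 10 passed the filter on low values that left 16157 genes for testing. The RNA came from WATs of 6 mice fed a chow diet. The 3 control mice were Ntsr2 flox/flox, and the 3 Ntsr2 AKO mice were Adipoq-cre::Ntsr2 flox/flox, so that both groups carried the floxed allele and only the AKO mice carried Cre. Adipoq drives Cre in adipocytes of white and brown fat, while the RNA was from whole tissue, in which other cells keep Ntsr2. The sources used here give neither the depot for this experiment nor the age or sex of these mice. The mice are named by group and number (control 3, 4 and 5; Ntsr2 AKO 3, 4 and 5), and equal numbers are different animals.

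Growth factor receptors and many G protein-coupled receptors activate ERK through Ras, Raf and MEK. Active ERK switches on transcription of its own inhibitors. The dual-specificity phosphatases remove phosphate from both the threonine and the tyrosine of the ERK activation loop, Dusp6 in the cytoplasm and Dusp2, Dusp4 and Dusp5 in the nucleus. Dusp1 is nuclear too, acts mainly on p38 and JNK, and is also induced by glucocorticoids and cAMP. Sprouty proteins interfere with the step from receptor to Ras and Raf, and Spred proteins bring the Ras GTPase-activating protein neurofibromin to the membrane. Because their mRNAs follow the pathway's activity in many cells, these transcripts are commonly read as a gauge of ERK output. The comparison asks whether the gauge differed between Ntsr2 AKO and control WATs. Phosphorylated ERK itself is not measured by RNA-seq. The study reports no significant change in phosphorylated ERK in epididymal WATs depleted of Ntsr2. Whether the RNA came from that depot is not stated.

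The upstream DNA of 8 of the 10 genes was taken from RefSeq (GRCm38.p6, the same assembly as the mm10 named in the labels). Bases -250 to -51 from the RefSeq start site were searched on both strands for 6 motifs of factors that act in ERK or cAMP signaling. The 4 sequences below are those of the 3 genes with a match, and of Spred1, the member with the smallest p in limma, which has none. Capitals mark the matches. Each sequence is written 5′ to 3′ on the strand of the gene.
Dusp1: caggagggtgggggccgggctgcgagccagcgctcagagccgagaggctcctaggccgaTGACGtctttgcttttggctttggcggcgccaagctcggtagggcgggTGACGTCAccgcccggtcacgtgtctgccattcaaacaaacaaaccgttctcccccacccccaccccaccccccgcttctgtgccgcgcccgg
Dusp2: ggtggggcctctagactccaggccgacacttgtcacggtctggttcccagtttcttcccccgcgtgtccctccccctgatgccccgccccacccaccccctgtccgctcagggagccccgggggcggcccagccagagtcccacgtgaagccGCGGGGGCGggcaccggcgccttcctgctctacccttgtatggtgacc
Dusp5: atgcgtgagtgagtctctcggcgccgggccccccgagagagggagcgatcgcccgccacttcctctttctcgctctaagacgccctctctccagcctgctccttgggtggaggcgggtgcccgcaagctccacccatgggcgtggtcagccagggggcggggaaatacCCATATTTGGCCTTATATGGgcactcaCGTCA
Spred1: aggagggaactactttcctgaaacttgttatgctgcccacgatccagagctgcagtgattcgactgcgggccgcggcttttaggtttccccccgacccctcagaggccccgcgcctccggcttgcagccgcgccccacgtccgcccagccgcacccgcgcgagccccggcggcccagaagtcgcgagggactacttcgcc

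The Dusp1 sequence lies at chr17:26508523-26508722 on the minus strand. It holds the full palindromic cAMP response element TGACGTCA at -143 to -136, and a separate copy of its core TGACG at -191 to -187. The full element occurs in 0.828% of 32851 upstream windows and the core, whose letters are also part of the full element, in 12.7%. The Dusp5 sequence lies at chr19:53528895-53529094 on the plus strand and holds 2 adjacent CArG boxes, the element bound by SRF, at -82 to -73 and -72 to -63. A CArG box (CC, then 6 bases of A or T, then GG) occurs in 1.16% of the windows. Dusp5 also has the reverse complement of the cAMP core at -55 to -51. The Dusp2 sequence lies at chr2:127335909-127336108 on the plus strand and holds 1 match to GCGNGGGCG, the element read by EGR factors, at -98 to -90, a motif found in 3.04% of the windows. The Spred1 sequence lies at chr2:117120821-117121020 on the plus strand. None of the 8 windows held TGANTCA (AP-1, 5.57% of windows) or CCGGAAG (ETS, 3.98%). These matches describe letters in a window and not occupied sites.

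The deposited values are read counts divided by 1 size factor for each mouse, and the recovered totals were 60405373 to 66098226 reads in control and 54085088 to 56268725 in Ntsr2 AKO mice. Of the targeted gene Ntsr2, a neurotensin receptor, the normalized counts were 83.8, 64.0 and 152.5 in control 3, 4 and 5 and 3.10, 8.29 and 0 in Ntsr2 AKO 3, 4 and 5, which do not overlap. The 7 adipocyte markers (Adipoq, Plin1, Cidec, Lipe, Fabp4, Cfd and Lep) sum to 2303930 to 3348480 in control and 2657630 to 2867530 in Ntsr2 AKO mice, and 0 of the 7 had an unadjusted p under 0.05 in limma. Transcripts of skeletal muscle (Acta1, Ckm, Myh1, Myh4, Tnnt3 and Mylpf) sum to between 371.4 and 1425 in control 3, control 4 and Ntsr2 AKO 3, but to 2226570 in control 5, 69252 in Ntsr2 AKO 4 and 153549 in Ntsr2 AKO 5. The libraries of these last 3 mice hold muscle RNA, and results are therefore also given without them. Sums of endothelial, progenitor, macrophage, mural, mesothelial and brown adipocyte markers overlapped between the groups. Single markers did not overlap for mesothelial Krt19, lower in all Ntsr2 AKO mice (log2 fold change -1.64, adjusted p = 0.575 in limma), and for Cidea, a marker of brown adipocytes, higher in all of them (0.77, adjusted p = 0.558). The sum of 5 lymphocyte markers (Cd3e, Cd3g, Cd8a, Cd79a and Ms4a1) was 939.7 in control 3 and 107.4 to 249.8 in the other mice. In whole tissue, fewer cells of a type and less RNA per cell cannot be told apart.

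Normalized counts divided by transcript length allow levels to be compared between genes. In control mice Dusp1 had the highest mean level (1544 normalized counts per kb), then Spred1 (980.5), Spry1 (518.7), Dusp6 (444.4), Dusp4 (396.5), Spry2 (325.8), Spred2 (263.0) and Spry4 (248.1). Dusp5 (96.6) and Dusp2 (45.2) were far below the others. Most neighbours in this order overlapped between mice. Dusp1, for example, ranged from 985.5 to 1992 and Spred1 from 973.4 to 987.0 per kb. In Ntsr2 AKO mice the order of means was the same except that Dusp6 (449.1) stood above Spry1 (339.7). Dusp5 (33.9) and Dusp2 (10.7) were again the lowest.

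No gene of the feedback arm passed the threshold after correction over all genes. In limma, fitted to log2(normalized count + 1) of all 6 mice, Benjamini-Hochberg adjusted p values of the 10 genes were all above 0.05, against 0.00619% of all genes that passed, which is the single gene Egr1. The estimates were nevertheless mostly on one side. The log2 fold change (Ntsr2 AKO against control) was below 0 for 9 of the 10 genes, against 51.0% of all genes tested, and its median was -0.50 for the 10 genes and -0.01 for all genes. An unadjusted p under 0.05 with a lower level in Ntsr2 AKO mice was reached by 3 of the 10 (Spred1, Dusp5 and Dusp2), against 5.27% of all genes, and one with a higher level by 0 of the 10, against 3.08%. In 2 of the 10 (Spred1 and Dusp2) the highest Ntsr2 AKO value was under the lowest control value, against 8.16% of all genes. DESeq2 on the recovered reads gave an adjusted p under 0.05 for 0 of the 10, against 1.36% of all genes, and an unadjusted p under 0.05 with a lower level for 3, against 6.39%. edgeR gave an adjusted p under 0.05 for 0 and an unadjusted one with a lower level for 2, against 4.9%.

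**Figure D1:**
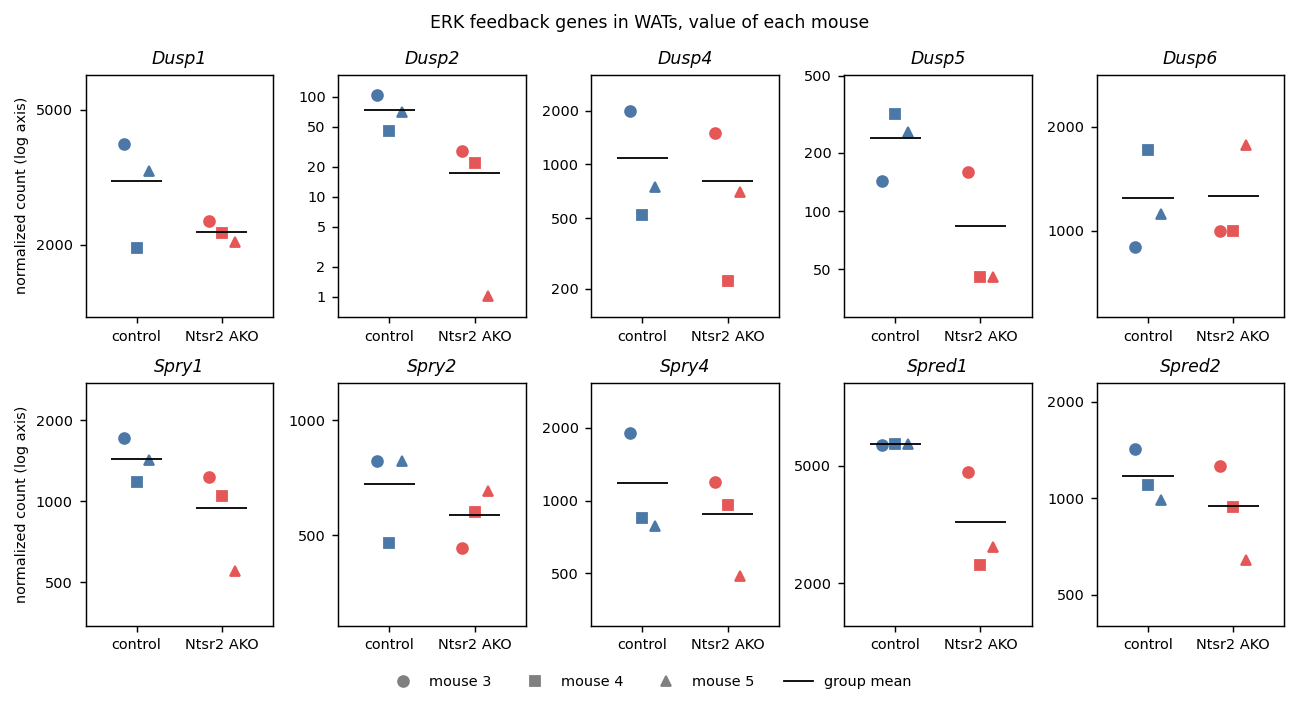
Normalized count (log axis, own range in each panel) of each of the 10 ERK feedback genes in 3 control mice (blue) and 3 Ntsr2 AKO mice (red), with marker shape for the number of the mouse and a line at the mean of each group. The groups are apart for Dusp2 and Spred1 and overlap for the other 8 genes.

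Spred1, which restrains Ras through neurofibromin, showed the smallest p of the group. Its normalized counts were 5856, 5902 and 5938 in control 3, 4 and 5. In Ntsr2 AKO 3, 4 and 5 they were 4742, 2296 and 2652. The control mice were nearly equal, all 3 Ntsr2 AKO mice were below them, and Ntsr2 AKO 3 was much closer to the control mice than the other two. The means were 5899 ± 41.0 (SD, n = 3) and 3230 ± 1322 (SD, n = 3), or 54.8% of the control mean. The log2 fold change was -0.94 (standard error 0.26, unadjusted p = 0.00919 and adjusted p = 0.522 in limma). DESeq2 gave an adjusted p of 0.120, the lowest of all alternatives. An exact permutation test of 3 against 3 mice cannot give a p below 0.10. Spred1 is a gene on chromosome 2 (117121374 to 117182279, plus strand, GENCODE M21 on GRCm38), with 7 exons in its longest coding transcript. The mice with muscle transcripts are Ntsr2 AKO 4 and 5, the 2 lowest for Spred1, and control 5, with a normalized count of 5938. Without control 5, Ntsr2 AKO 4 and Ntsr2 AKO 5, which leaves 2 control mice and 1 Ntsr2 AKO mouse taken to vary like them, the log2 fold change was -0.31 and no longer passed at an unadjusted p under 0.05. With the muscle level as a covariate in limma and all 6 mice kept, it was -0.90 (unadjusted p = 0.00905). The part of muscle RNA in Spred1 was not tested beyond these fits.

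Spred2, its paralog, gave 1427, 1097 and 987.1 normalized counts in control 3, 4 and 5 and 1257, 941.2 and 640.6 in Ntsr2 AKO 3, 4 and 5. Each Ntsr2 AKO mouse was below the control mouse of the same number, but the labels do not say that the numbers pair the mice, and the ranges overlap. The difference was -0.34 on the log2 scale (standard error 0.27, adjusted p = 0.750 in limma). Within each mouse, Spred1 was 4.11, 5.38 and 6.02 times Spred2 in control mice, by normalized count, and 3.77, 2.44 and 4.14 times Spred2 in Ntsr2 AKO mice. This ratio overlaps between the groups by a narrow margin, at 4.11 in control 3 and 4.14 in Ntsr2 AKO 5 (exact permutation test, two-sided, p = 0.20).

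Among the nuclear phosphatases, Dusp5 and Dusp2 gave the largest differences, at low read counts. Dusp5, a phosphatase specific for ERK1 and ERK2, lies on chromosome 19 (53529109 to 53542431, plus strand, 4 exons). It had normalized counts of 142.7, 316.7 and 257.1 in control 3, 4 and 5. In Ntsr2 AKO 3, 4 and 5 it had 160.0, 45.6 and 45.5. Ntsr2 AKO 4 and 5 were far below all control mice, whereas Ntsr2 AKO 3 was just above control 3, so the groups overlap. The means were 238.8 ± 88.5 and 83.7 ± 66.1 (SD, n = 3 each), and the log2 fold change was -1.69 (standard error 0.57, unadjusted p = 0.0218, adjusted p = 0.557 in limma). The 2 low mice are again Ntsr2 AKO 4 and 5, with muscle transcripts. Without them and control 5 the estimate was -0.41 on the log2 scale and was no longer past an unadjusted p of 0.05. With the muscle level as a covariate in limma it was -1.62 (unadjusted p = 0.0270). The part of muscle RNA in Dusp5 was not tested beyond these fits. An antisense transcript is annotated over an exon of Dusp5 and another over an exon of Spry1, and since no source states that strand was used in counting, their reads cannot be told apart.

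Dusp2, a phosphatase best known from activated immune cells, was the least abundant. It lies on chromosome 2 (127336159 to 127338376, plus strand, 4 exons). Its normalized counts were 104.0, 45.4 and 70.0 in control 3, 4 and 5 and 28.9, 21.8 and 1.01 in Ntsr2 AKO 3, 4 and 5. These rest on 113, 44 and 73 reads and on 28, 21 and 1 reads. The groups do not overlap, and the spread within the Ntsr2 AKO group comes mostly from the last mouse. The log2 fold change was -2.66 (standard error 1.06, unadjusted p = 0.0417, adjusted p = 0.590 in limma). It depends on the pseudocount at such counts, being -2.96 with 0.1 (unadjusted p = 0.0530) and -2.08 with 5 (0.0244) in limma. DESeq2 gave -2.08 (unadjusted p = 0.0298) and edgeR -2.07 (0.0683). The unadjusted p was 0.0548 in limma without the trend and 0.0559 in limma with quantile normalization. Without Ntsr2 AKO 5 the log2 fold change in limma was -1.43 (unadjusted p = 0.0328). Without control 3, the mouse with the highest lymphocyte marker sum, it was -2.37 (unadjusted p = 0.116). With the muscle level as a covariate in limma it was -2.54 (unadjusted p = 0.0511). Without the 3 mice with muscle transcripts it was -1.22 and no longer past an unadjusted p of 0.05. The part of lymphocytes or of muscle RNA in Dusp2 was not tested beyond these fits.

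Dusp4, also a nuclear ERK phosphatase, varied more between mice than between groups. Its normalized counts were 1996, 516.9 and 746.3 in control 3, 4 and 5 and 1498, 222.8 and 703.4 in Ntsr2 AKO 3, 4 and 5. In each group number 3 was the highest and number 4 the lowest. The group means differed by -0.57 on the log2 scale (standard error 0.77, adjusted p = 0.849 in limma), and it turned to 0.16 without Ntsr2 AKO 4. The standard error was the second largest of the 10 genes, and the 95% interval runs from -2.39 to 1.25. With a replicate block (the number of the mouse as a factor in limma) the estimate was again -0.57, with a standard error of 0.25 (unadjusted p = 0.0724). The labels do not say whether the numbers pair the mice.

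Dusp6, the cytoplasmic ERK phosphatase and the member most often used as a readout of ERK, had nearly the same mean in both groups. It gave 898.2, 1712 and 1118 normalized counts in control 3, 4 and 5 and 999.2, 996.1 and 1772 in Ntsr2 AKO 3, 4 and 5. Each group held one high mouse and the others lay together. The means were 1242 ± 421 and 1256 ± 447 (SD, n = 3 each), which is 0.01 on the log2 scale (standard error 0.32, adjusted p = 0.993 in limma). The 95% interval runs from -0.74 to 0.77, so a change of that size in either direction was not detectable with these mice. Its sign changed without Ntsr2 AKO 5 (-0.26), without control 3 (-0.19) and without control 5 (-0.04). The ratio of Dusp5 to Dusp6 normalized counts within a mouse was 0.159, 0.185 and 0.230 in control and 0.160, 0.0458 and 0.0257 in Ntsr2 AKO mice, where only Ntsr2 AKO 3 lies in the control range (exact permutation test, two-sided, p = 0.20).

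Dusp1, the most abundant member per kb, gave 3964, 1961 and 3295 normalized counts in control 3, 4 and 5 and 2348, 2168 and 2042 in Ntsr2 AKO 3, 4 and 5. The Ntsr2 AKO mice lay close together, and control 4 was below all of them while the other control mice were above. The estimate was -0.43 on the log2 scale (standard error 0.26, unadjusted p = 0.135, adjusted p = 0.678 in limma). It rests on control 4 more than on any other mouse. Without control 4 it was -0.73 (unadjusted p = 0.00268), and without control 3 it was -0.22 (unadjusted p = 0.394).

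**Figure D2:**
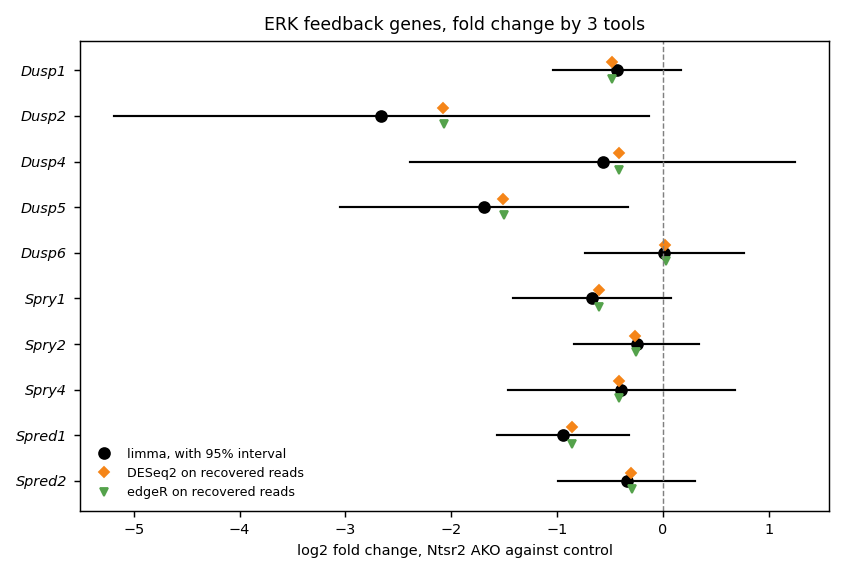
Log2 fold change (Ntsr2 AKO against control, 3 mice each) of the 10 genes in limma, with the 95% interval as a line, in DESeq2 and in edgeR. The interval lies below 0 for Dusp2, Dusp5 and Spred1 without correction for the number of genes, and crosses 0 for the other 7.

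With all 6 mice and no block, the 3 Sprouty genes passed neither the adjusted nor the unadjusted threshold. Spry1 had the largest estimate. Its normalized counts were 1716, 1177 and 1423 in control 3, 4 and 5 and 1226, 1047 and 552.6 in Ntsr2 AKO 3, 4 and 5, with an overlap that involves only control 4 and Ntsr2 AKO 3. Its log2 fold change was -0.67 (standard error 0.31, unadjusted p = 0.0711, adjusted p = 0.616 in limma), and it was -0.33 without Ntsr2 AKO 5. Without Ntsr2 AKO 3 it was -0.90 (unadjusted p = 0.0325). Spry2 gave 780.4, 477.7 and 781.8 in control 3, 4 and 5 and 463.5, 576.3 and 652.8 in Ntsr2 AKO 3, 4 and 5, and the control mice bracket most of the Ntsr2 AKO values. Its log2 fold change was -0.25 (standard error 0.25, adjusted p = 0.800). Spry4 gave 1911, 843.9 and 784.7 in control 3, 4 and 5 and 1197, 959.8 and 486.8 in Ntsr2 AKO 3, 4 and 5. A single high value, that of control 3, set its control mean, and its estimate of -0.39 on the log2 scale (standard error 0.45, adjusted p = 0.821 in limma) became 0.02 without that mouse.

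The members differed in how even they were between mice. In control mice the SD was 0.696% of the mean for Spred1, 18.7% for Spry1 and 19.5% for Spred2, and it reached 53.7% for Spry4 and 73.3% for Dusp4. In Ntsr2 AKO mice Dusp1 was the most even (7.03%) and Dusp2 the least (84.1%). Control 3 was the highest of the 6 mice in 6 of the 10 genes, and Ntsr2 AKO 5 was the lowest in 5. Mice therefore did not contribute evenly to the lower estimates. With Ntsr2 AKO 3 left out, the Ntsr2 AKO mice all lay under the control mice in 5 of the 10 genes, against 16.1% of all genes under the same omission, and 4 had an unadjusted p under 0.05 with a lower level, against 6.82%. Without control 4 the groups were apart in 5 genes, against 15.5%. Without control 5 only Spred1 kept an unadjusted p under 0.05, against 3.43% of all genes, and without all 3 mice with muscle transcripts 0 of the 10 did, against 1.12%.

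**Figure D3:**
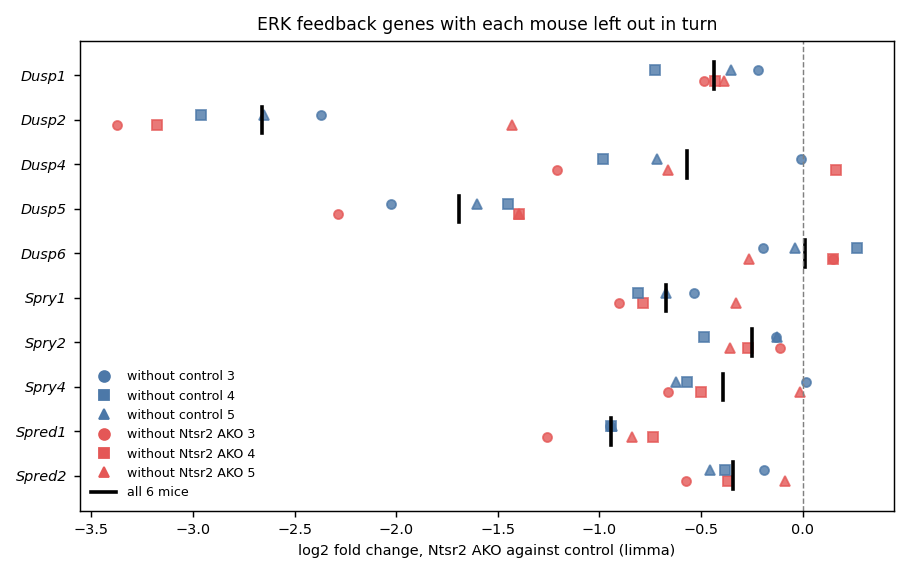
Log2 fold change (Ntsr2 AKO against control, limma) of the 10 genes with each mouse left out in turn, blue for control and red for Ntsr2 AKO mice, with a black bar for all 6 mice. Every point of Dusp1, Dusp2, Dusp5, Spry1, Spry2, Spred1 and Spred2 stays below 0, while those of Dusp4, Dusp6 and Spry4 fall on both sides.

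The genes around the feedback arm were read from the same fit, in lists written with earlier results of these data known. Within each list the genes named are from the 4 with the smallest p. Of 18 other dual-specificity phosphatases, 12 had estimates below 0, against 51.0% of all genes. An unadjusted p under 0.05 was reached by 1 (5.56%, lower), about the share of all genes lower at that threshold (5.27%). After adjustment 0 passed, and the median log2 fold change was -0.08. The smallest p values were those of Dusp7, a cytoplasmic ERK phosphatase (log2 fold change -0.50), Dusp10, which acts on p38 and JNK (-0.72), Dusp14 (-1.70) and Dusp3 (-0.33). Of these only Dusp7 had an unadjusted p under 0.05, with normalized counts of 924.0, 770.7 and 1166 in control and 633.8, 613.6 and 757.0 in Ntsr2 AKO mice, which do not overlap.

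A further list holds other inhibitors induced by or acting on the pathway. Of 21 such genes tested, 15 had estimates below 0, against 51.0% of all genes. An unadjusted p under 0.05 was reached by 8, all lower, against 5.27% of all genes. In 7 the groups did not overlap, with Ntsr2 AKO below, against 8.16%. The median log2 fold change of the 21 genes was -0.23, and 0 passed after adjustment in limma. Trib1, a pseudokinase that binds MEK and the ubiquitin ligase COP1, had 4134, 2658 and 2744 normalized counts in control 3, 4 and 5 and 1327, 1392 and 1530 in Ntsr2 AKO 3, 4 and 5. All Ntsr2 AKO values were about alike and lay far below the control values. On the log2 scale Trib1 differed by -1.14 (standard error 0.19, unadjusted p = 0.000634, adjusted p = 0.499 in limma). Ptpn7, a tyrosine phosphatase of ERK (-1.03), Ier3, an early response gene (-1.28), and Zfp36, which destabilizes AU-rich mRNAs (-0.95), followed, with no overlap between the groups. In DESeq2 3 of the list passed after adjustment, Trib1, Ptpn7 and Ier3, against 1.36% of all genes.

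Another list holds the cascade itself, from adaptors and Ras to Raf, MEK, ERK and its substrates. Of 36 genes tested, 29 had estimates below 0, against 51.0% of all genes. An unadjusted p under 0.05 was reached by 3 (8.33%, all lower), against 5.27% of all genes lower at that threshold. After adjustment 0 passed, and the median log2 fold change was -0.18. Among the smallest p values were those of Nras (-0.28), the adaptor Grb2 (-0.30) and the MEK gene Map2k1 (-0.24). Of 22 receptors upstream of ERK, 14 had estimates below 0, against 51.0% of all genes. An unadjusted p under 0.05 was reached by 2 (9.09%, both lower), against 5.27% of all genes. They were Ntsr2 (log2 fold change -4.81, adjusted p = 0.499 in limma) and the IGF-1 receptor Igf1r (-0.70). Ntsr2 is the gene that Cre deletes, so its place in both receptor counts was set by the design. Apart from it, only Igf1r reached that threshold. The median of the receptors was -0.04. Fgfr2 (0.45) and Kit (0.53) followed by p, with estimates above 0.

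The transcripts that active ERK induces, mostly immediate early genes switched on through SRF and its ETS partners, had larger estimates than the feedback arm. Of 30 tested, 26 had estimates below 0, against 51.0% of all genes. An unadjusted p under 0.05 with a lower level was reached by 18, against 5.27% of all genes. With a higher level it was reached by 2 (Etv1 and Lif), against 3.08%. In 19 the Ntsr2 AKO mice all lay under the control mice, against 8.16% of all genes. The median log2 fold change was -0.91, against -0.50 for the 10 feedback genes. Egr1 was the only gene of the whole table to pass after adjustment in limma. Its normalized counts were 2411, 2020 and 2627 in control 3, 4 and 5 and 513.0, 407.3 and 507.0 in Ntsr2 AKO 3, 4 and 5. Each Ntsr2 AKO mouse was far below each control mouse, and Egr1 fell by 2.30 on the log2 scale (standard error 0.16, adjusted p = 0.0442). This call was lost in edgeR (adjusted p = 0.0512), in limma without the trend (0.232), without a filter on low values (0.0910), with the replicate block (0.0742) or the muscle covariate (0.0789), and with any mouse left out (0.0974 to 0.449), and its log2 fold change stayed between -2.41 and -2.10 in all alternatives. Fos gave 545.8, 527.2 and 574.6 in control and 165.2, 114.0 and 159.9 in Ntsr2 AKO mice, with an estimate of -1.92 on the log2 scale (adjusted p = 0.160 in limma). Junb (-2.40) and Myc (-1.39) followed, with adjusted p values of 0.499 in limma. In DESeq2 all 4 passed, as did 10 of the list in all, against 1.36% of all genes. This list was written with the value of Egr1 known, so its counts are no independent evidence of a direction. The difference in size between this list and the feedback arm was not tested.

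**Figure D4:**
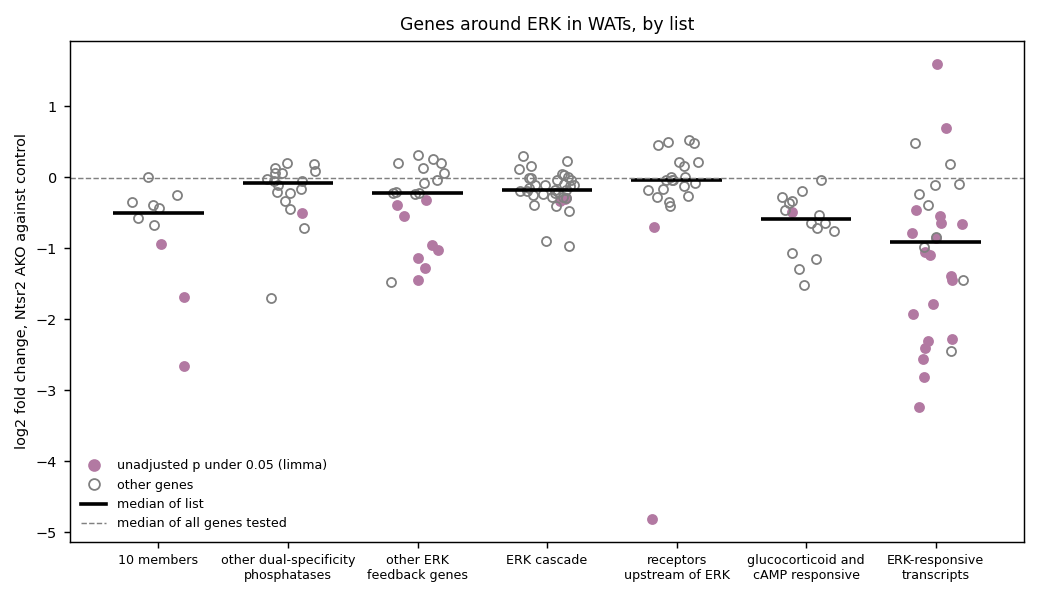
Log2 fold change (Ntsr2 AKO against control, limma) of each gene tested in the 10 feedback genes and in 6 lists around ERK, filled where the unadjusted p is under 0.05, with a bar at the median of each list and a dashed line at the median of all genes. The medians run from -0.04 for the receptors to -0.91 for the ERK-responsive transcripts.

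Because Dusp1 also answers to glucocorticoids and cAMP, 16 other genes that do so were listed. All 16 had estimates below 0, against 51.0% of all genes, with a median log2 fold change of -0.58. An unadjusted p under 0.05 was reached by 1 of them (6.25%, lower), about the share of all genes lower at that threshold (5.27%). After adjustment 0 passed. The smallest p values were those of the kinase Sgk1 (-0.49), the transcription factor Klf9 (-1.06), the CREB-regulated kinase Sik1 (-0.65) and the glucocorticoid receptor cochaperone Fkbp5 (-0.35). Sgk1 gave 6587, 7093 and 5956 normalized counts in control and 5269, 5374 and 3533 in Ntsr2 AKO mice, without overlap. The estimates of Dusp1 (-0.43) and of this list lie on the same side, and the part of these inducers in Dusp1 was not tested.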

How the data were processed

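RNA-seq was performed on poly-A RNA from WATs of 3 control and 3 Ntsr2 AKO mice. The authors trimmed reads with Trimmomatic, aligned them with Hisat2, quantified genes with StringTie and used DESeq2. The labels name mm10, and tool versions and the annotation are not given in the sources used here. The deposited signal values are normalized counts, in which read counts of 21456 genes are divided by 1 size factor per mouse. Division by the step of each column gave whole reads for 100% of values (tolerance 0.001). The totals, 54085088 to 66098226 reads, leave little counting error for well expressed genes. Counting error adds to the spread between mice for genes with few reads, such as Dusp2, Dusp5, Dusp14, Lif and Ntsr2. All columns differed by more than sampling error.

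With a pseudocount of 1, log2 values of the 16157 genes whose mean normalized count reached 10 were tested in R 4.3.3 with limma 3.58.1 (lmFit, eBayes with trend, two-sided, Benjamini-Hochberg over all genes tested, threshold 0.05) on all 6 mice without covariates. The study used DESeq2, but the deposited values are not counts, so edgeR 4.0.16 (quasi-likelihood) and DESeq2 1.42.0 on the recovered reads were alternatives. The others were pseudocounts of 0.1 and 5, omission of the filter or a minimum of 50, quantile and TMM scaling, limma without the trend, a replicate block, the muscle level as a covariate, and omission of each mouse. Omission of the 3 mice with muscle transcripts was added after seeing the data. The procedures were tested on simulated data. Separate mice are taken from the labels, and no batch is given there.

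The 10 members and all lists were chosen with earlier results of these data known. All members and Ntsr2 are named, and in each pathway list genes from the 4 with the smallest p. Some results that follow from these rules are not reported here. Other genes were named after their values were seen. Transcript lengths and positions are of the longest coding transcript in GENCODE M21 (GRCm38). Upstream DNA from RefSeq was searched for 8 members only. Other measurements of the study were not analysed here.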

Additional observations from a re-analysis of the deposited data

How the results depend on the processing

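With 3 mice a group, an exact permutation test cannot give a p below 0.10, and wide intervals limit what the genes with few reads or uneven mice (Dusp2, Dusp4, Dusp5 and Spry4) can show. Of the 10 feedback genes, 0 passed the adjusted threshold under all 19 alternatives run, and 8 to 10 had estimates below 0 in each. Dusp2 is not tested with a minimum of 50. With each mouse left out in turn, 1 to 4 of them had an unadjusted p under 0.05 with a lower level (3 with all mice), against 2.56% to 6.82% of all genes, and 2 to 5 separated the groups with Ntsr2 AKO below (2 with all mice), against 10.1% to 16.1% of all genes. The range of log2 fold changes over the alternatives was -1.26 to -0.31 for Spred1, -2.29 to -0.41 for Dusp5 and -3.37 to -1.22 for Dusp2. The lowest adjusted p over the alternatives was 0.120 for Spred1 (DESeq2) and 0.262 for Dusp5 (limma without Ntsr2 AKO 3). The sign of the log2 fold change turned for Dusp6 with the muscle covariate (-0.0016) and without Ntsr2 AKO 5 (-0.26), control 3 (-0.19) or control 5 (-0.04), for Dusp4 without Ntsr2 AKO 4 (0.16) and for Spry4 without control 3 (0.018). With each mouse left out in turn the estimates ran from -0.26 to 0.27 for Dusp6, from -1.21 to 0.16 for Dusp4 and from -0.66 to 0.018 for Spry4. Without control 5, Ntsr2 AKO 4 and Ntsr2 AKO 5 together it turned for Dusp6 (-0.31), Dusp4 (0.56), Spred2 (0.0074) and Sik1 (0.059). The cause of these turns was not tested beyond the mice left out.

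Over all genes, 1 passed the adjusted threshold, against 219 in DESeq2 with or without independent filtering, and 0 in edgeR, in limma without the trend, without a filter, with the replicate block, with the muscle covariate, with each mouse left out and without the 3 mice with muscle transcripts. The number with an unadjusted p under 0.05 was 852 lower and 497 higher (edgeR 1323 in all), with ranges of 414 to 1101 lower and 232 to 603 higher with each mouse left out, and 177 lower and 75 higher without the 3 mice.

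The numbers of genes lower at an unadjusted p under 0.05 moved by list. With each mouse left out they were 0 to 2 for the other phosphatases (1 with all mice), 3 to 8 for the other feedback genes (8), 0 to 6 for the cascade (3), 15 to 19 for the ERK-responsive transcripts (18), 1 to 2 for the receptors (2) and 0 to 4 for the glucocorticoid and cAMP genes (1). Over all genes the share lower at that threshold was 2.56% to 6.82% under these omissions (5.27% with all mice). The receptors include Ntsr2, the gene that Cre deletes, whose lower level was set by the design. Omission of the 3 mice with muscle transcripts leaves 1 Ntsr2 AKO mouse, and counts by list are not given for that fit. DESeq2, with or without independent filtering, gave 5 for the cascade and 4 for the glucocorticoid and cAMP genes, with 6.39% of all genes lower at that threshold, and edgeR gave 2 for the latter, with 4.9% of all genes. Limma without the trend gave 5 other feedback genes, 0 of the cascade and 0 of the glucocorticoid and cAMP genes, against 4.48% of all genes. Quantile normalization gave 5, 0 and 0 for these and 1 for the receptors, against 3.79%. The muscle covariate gave 2 other phosphatases, 1 receptor and 2 glucocorticoid and cAMP genes, against 5.6%.

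The labels give both groups the numbers 3, 4 and 5. Mice that share a number deviated from the mean of their own group with correlations across genes of 0.45, -0.24 and 0.41. Between mice of unlike numbers the correlations ran from -0.52 to 0.26. The values differ in sign among the shared numbers, and they do not decide whether the numbers pair the mice. Nothing in the labels says that they do, and the main fit therefore did not pair them. With the replicate block, 0 genes passed the adjusted threshold, and an unadjusted p under 0.05 with a lower level was reached by 5.36% of all genes, 4 of the 10 feedback genes (Spry1 among them), 2 other phosphatases, 1 gene of the cascade and 2 glucocorticoid and cAMP genes.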

Other observations

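Not all transcripts of the ERK-responsive list were lower in Ntsr2 AKO mice. Etv1, an ETS factor, and Lif, a cytokine of the IL-6 family, had estimates above 0 and were picked out here after their values were seen. Lif gave 38.7, 33.0 and 33.6 normalized counts in control 3, 4 and 5 and 83.6, 145.1 and 105.3 in Ntsr2 AKO 3, 4 and 5, a difference of 1.61 on the log2 scale (standard error 0.34, adjusted p = 0.499 in limma). Etv1 gave 69.9, 87.7 and 73.9 in control and 115.6, 131.6 and 127.5 in Ntsr2 AKO mice, a difference of 0.69 on the log2 scale (standard error 0.26, adjusted p = 0.566). Etv5, its paralog and a common ERK readout, gave 465.7, 473.5 and 645.6 in control and 391.2, 251.9 and 282.4 in Ntsr2 AKO mice, a difference of -0.78 on the log2 scale (standard error 0.24, adjusted p = 0.523). The groups of each of these 3 genes do not overlap, and 0 of the 3 passed the adjusted threshold in limma.

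Among feedback genes outside the 10, Errfi1, an inhibitor of the EGF receptor that ERK induces, gave 10438, 3911 and 10515 normalized counts in control 3, 4 and 5 and 4774, 2069 and 2140 in Ntsr2 AKO 3, 4 and 5. Control 4 lies below Ntsr2 AKO 3, so the groups overlap. Its log2 fold change was -1.45 (standard error 0.48, unadjusted p = 0.0203, adjusted p = 0.557 in limma), and it too was picked out after its values were seen.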
